A study of Mus musculus with 6 samples.

Results

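Runx3 (gene ID 12399) was followed along its whole locus, a 70 kb window at chr4:134670001-134740000 of the mouse genome build mm9 that holds the gene on the plus strand with its distal 5′ end near position 134676600. The window is defined by gene and coordinates, and the gene was picked with earlier results of these data known. It covers 1 of the 21900 protein-coding genes that the RefSeq gene table of build GRCm38.p6 lists, and 70 of the 2639040 bins of 1 kb counted over chromosomes 1 to 19 and X. The study mapped Ezh2 by chromatin immunoprecipitation and sequencing (ChIP-seq) in mouse CD4+ helper T cells of the Th1 and Th2 types. All 6 libraries came from naive (CD44lowCD62Lhigh) splenic CD4+ T cells of C57BL/6 mice, whose age was not given in the sources used here. Both cultures ran for 5 days with 15 ng/ml IL-2, of which the first 2 days had agonistic antibodies to TCRβ and CD28 and the last 3 days had none. Th1 cultures also received 10 ng/ml IL-12 and an antibody to IL-4. Th2 cultures also received 100 ng/ml IL-4 and an antibody to IFN-γ. Each cell type gave 1 library with a polyclonal antibody to Ezh2, 1 with a control antibody and 1 of input DNA, so there were no replicates.

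Runx3 is a DNA-binding protein of the RUNX family. In T cells it acts in the CD8 lineage, where it silences Cd4, and in Th1 cells, where it works with the factor T-bet to switch on Ifng and to keep Il4 silent. Transcription starts at a distal promoter, the main one in activated T cells, or at a proximal promoter further into the gene, and the proteins made from the 2 starts differ at the amino end. Ezh2 is the enzyme of Polycomb repressive complex 2 that methylates histone H3 at lysine 27, a mark of silenced developmental genes that often covers CG-rich promoters. The libraries hold DNA, so neither Runx3 transcripts nor the markers of Th1 and Th2 cells could be checked in them.

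The sequences of both promoters are given because the position of Ezh2 relative to the 2 starts is what the results below describe, and because the promoters differ in CG content. Each runs from 250 bases before to 50 bases after a transcription start and was taken from RefSeq on GRCm38.p6, plus strand. The distal promoter lies at chr4:135120395-135120694 and the proximal one at chr4:135152295-135152594. Capitals mark RUNX motif matches in the distal sequence and CG dinucleotides in the proximal one.
Runx3 distal promoter: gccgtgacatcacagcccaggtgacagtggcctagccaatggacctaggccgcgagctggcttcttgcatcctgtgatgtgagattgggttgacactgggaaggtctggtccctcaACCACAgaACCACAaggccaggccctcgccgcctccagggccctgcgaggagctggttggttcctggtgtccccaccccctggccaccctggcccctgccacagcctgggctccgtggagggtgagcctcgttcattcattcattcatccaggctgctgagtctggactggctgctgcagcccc
Runx3 proximal promoter: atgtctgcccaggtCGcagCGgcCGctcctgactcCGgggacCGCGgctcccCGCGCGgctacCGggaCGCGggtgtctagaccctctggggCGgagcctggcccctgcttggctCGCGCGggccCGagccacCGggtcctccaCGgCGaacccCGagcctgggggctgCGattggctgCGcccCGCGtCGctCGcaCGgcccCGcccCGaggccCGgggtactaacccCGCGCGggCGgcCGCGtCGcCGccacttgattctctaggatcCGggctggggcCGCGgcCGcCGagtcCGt
The RUNX motifs TGTGGT and TGCGGT were searched on both strands. The distal promoter held 2 matches that do not overlap, both TGTGGT on the minus strand (ACCACA as printed), which began 134 and 126 bases before the start. The proximal promoter held 0 matches. Of 32851 mouse promoters of the same length, 22.4% held at least 1 match and 2.86% held 2 or more. The distal promoter had 8 CG dinucleotides and a GC content of 63.7%. The proximal promoter had 45 CG dinucleotides, more than 98.1% of all promoters, and a GC content of 77.3%. The median promoter had 7 CG dinucleotides and a GC content of 52.7%. A match is a run of letters and was not tested for binding by RUNX proteins.

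The 2 starts are 31.9 kb apart in GRCm38.p6. Positions along the locus are given below in mm9 as distances from the distal 5′ end. The proximal start was placed at the same distance in mm9. It is a distance and not a converted coordinate, and it was not checked against an mm9 annotation.

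Depth was counted as distinct mapped positions, so that reads stacked on 1 position counted once. The libraries held between 5053626 and 15578675 positions on the chromosomes used, the lowest being the Th2 control antibody, whose file was whole on only 8 chromosomes. Chromosome 4 is among these 8. Within the Runx3 window, 520 positions belonged to the Th1 Ezh2 library and 855 to the Th2 one. The Th1 input had 678 and the Th2 input 571, while the control antibody gave 363 with Th1 and 434 with Th2. The number of reads per position in the window ran from 1.24 in the Th1 input to 2.01 in the Th1 Ezh2 library. Intervals given below are 95% exact (Clopper-Pearson) intervals. They cover counting error only, and reads amplified by PCR without molecular identifiers are not independent molecules. Every test rests on single libraries or sums of them without replicates, so it compares libraries and not the cell types.

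Over most of the locus, Ezh2 counts lay in the range of the inputs. The highest counts of the Th2 Ezh2 library formed 1 stretch, inside the gene between the 2 starts (the plot of counts along the locus). Neither promoter held a bin called as enriched by the rule given below. The count per 1 kb bin of the Th2 Ezh2 library ran from 3 to 35 around a median of 11, and that of the Th1 Ezh2 library from 1 to 19 around a median of 7. The inputs ran from 4 to 17 in Th1 and from 2 to 16 in Th2, and the control antibody from 0 to 11 in Th1 and from 1 to 14 in Th2. The 7 bins with the highest Th2 Ezh2 counts of the window were all next to each other, 15.4 to 22.4 kb after the distal 5′ end, with 23, 25, 34, 30, 35, 26 and 23 positions. In these bins the Th1 Ezh2 library held 5, 15, 13, 9, 15, 12 and 7 positions. These counts, not scaled for depth, overlapped the range of the inputs. After scaling by library totals, the 7 bins together were 1.50-fold over input (1.07 to 2.10) in Th1 and 3.18-fold (2.34 to 4.39) in Th2. With the inputs exchanged these were 1.71 and 2.80. The run was picked for high Th2 Ezh2 counts, so these folds are a description.

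**Figure D1:**
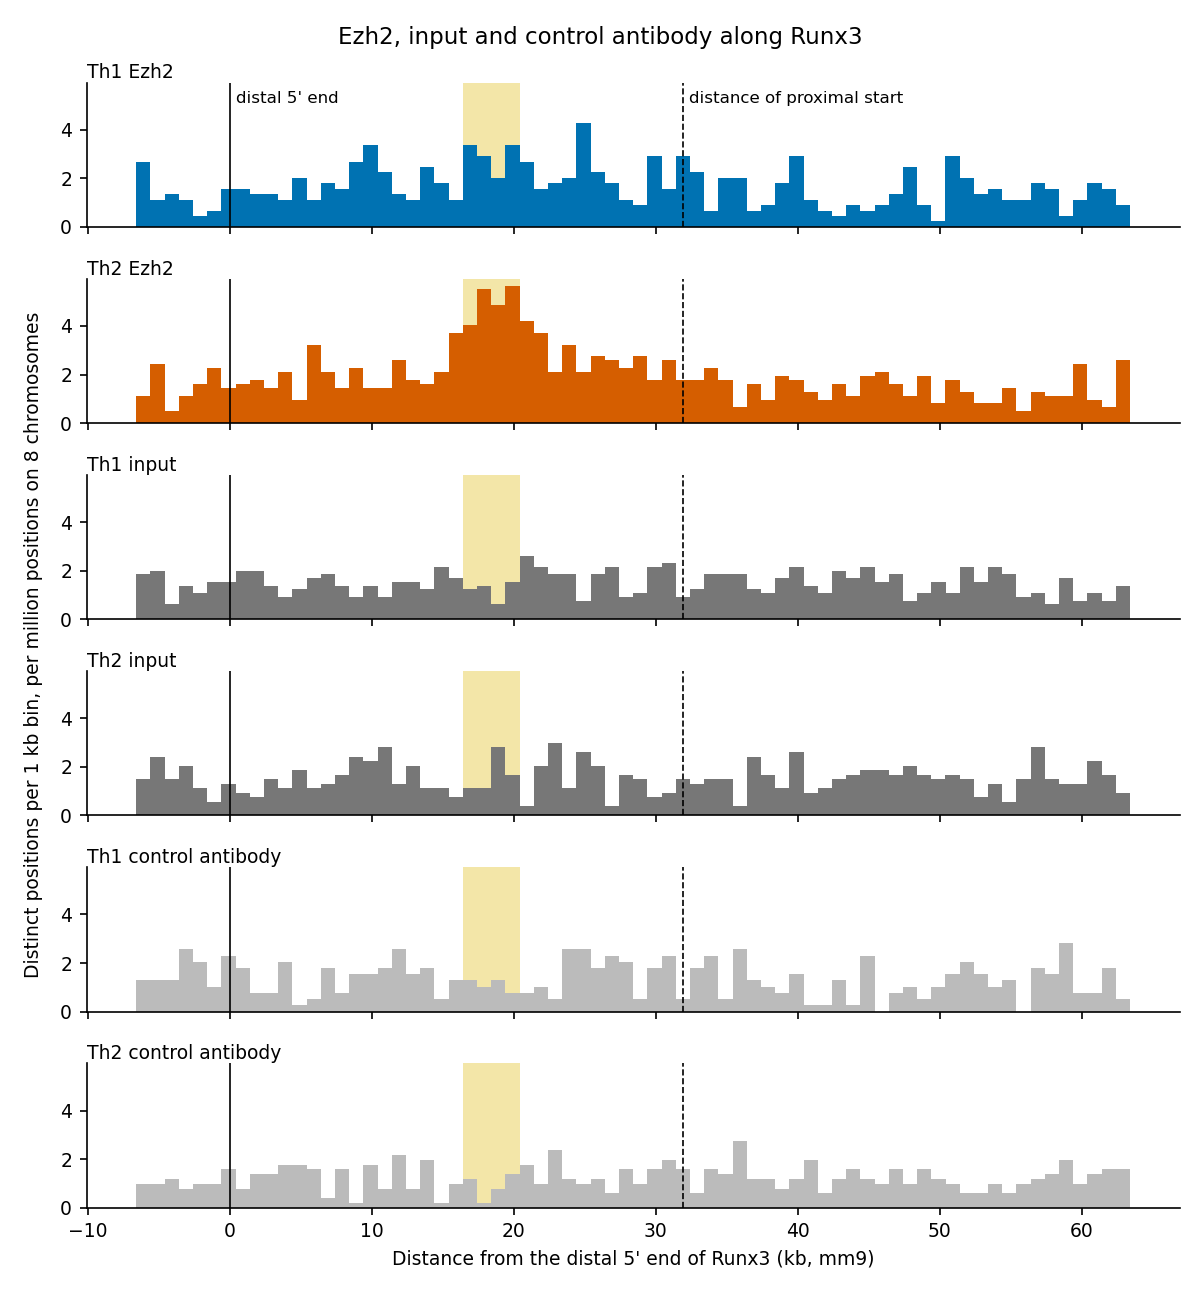
Distinct positions per 1 kb bin along the Runx3 window, scaled to each library's positions on the 8 chromosomes that every file held whole, against the distance from the distal 5′ end in kb, for the 6 libraries, with the called 4 kb region shaded, the distal 5′ end as a solid line and the distance of the proximal start as a dashed line. The Th2 Ezh2 library has its 7 highest bins side by side between 15.4 and 22.4 kb, and the control antibody and input libraries show no such run there.

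Summed over the 70 kb, Ezh2 positions relative to input, after scaling by library totals, were 1.11-fold (interval 0.984 to 1.24) in Th1 and 1.29-fold (1.16 to 1.43) in Th2. The same ratio for the control antibody was 0.894 (0.785 to 1.02) in Th1 and 0.806 (0.709 to 0.914) in Th2. The median of 35546 windows of 70 kb across the genome was 0.876 for both Ezh2 libraries, and the Runx3 window stood at the 79.2nd percentile in Th1 and the 90.3rd in Th2. Without the called region described next, the window was at 1.04-fold in Th1 and 1.17-fold in Th2.

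A bin was called where its Ezh2 count was at least 2-fold above the matching input (0.5 added to each count) with a Benjamini-Hochberg adjusted p below 0.05 in a one-sided exact binomial test over all bins with at least 10 positions. In Th2, 3 of 68 tested bins of the window were called, a share of 4.41%, against 1.21% of all bins tested in the genome. In Th1, 1 of 69 tested bins was called (1.45%), against 0.992% in the genome, which is near the background. With the control antibody, 0 of 60 tested bins were called in either cell type, against 0.00151% of bins in Th1 and 0% in Th2 over the genome, and 1 bin in Th1 and 2 in Th2 had an unadjusted p below 0.05. By fold alone, 13 of 69 bins in Th1 and 14 of 68 in Th2 reached 2-fold (18.8% and 20.6%, against 14.7% and 14.6% in the genome). For the control antibody 5 of 60 bins reached it in each cell type (8.33%, against 11.9% in Th1 and 14.1% in Th2). No bin was called in both cell types, but only 1 was called in Th1 and 3 in Th2. The share of bins called in both over the genome was not computed, so this count shows no contrast between them.

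The enriched place was a 4 kb region at chr4:134693001-134697000, 16.4 to 20.4 kb after the distal 5′ end and thus upstream of the proximal start. It was called when both Ezh2 libraries were counted together against both inputs. That joint call covered 1.28% of bins in the genome and 3 of the 4 bins of the region, and gave 2902 regions of at least 3 kb, of which this was the 1 in the Runx3 window. In the region, 52 Ezh2 positions were found in Th1 and 124 in Th2. The input had 31 in Th1 and 36 in Th2, and the control antibody had 17 and 18. The Th2 Ezh2 library thus stood above all other libraries in the region, before and after scaling for depth. The fold over input was 2.42 (1.52 to 3.90) in Th1 and 2.96 (2.03 to 4.42) in Th2. These folds are those of a region chosen for being high in the same libraries, so they are a description.

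In the region, the Th2 fold was above 1 with each background library. The region was chosen with these Ezh2 and input counts, and the folds over the control antibody reuse the same Ezh2 counts. These folds are thus also a description and not separate support. Against the input of the other cell type it was 4.16-fold (2.79 to 6.39), against both inputs together 3.52-fold, and against the Th2 control antibody 5.63-fold (3.42 to 9.82). In Th1 the fold was 1.72 (1.10 to 2.71) against the Th2 input, 2.04 against both inputs and 2.64 (1.50 to 4.87) against the Th1 control antibody. The control antibody was itself not above input there, at 0.916-fold (0.476 to 1.71) in Th1 and 0.530-fold (0.283 to 0.958) in Th2.

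Of the 3 bins called in Th2, 2 lay inside the region. At chr4:134694001-134695000, the Th2 Ezh2 library held 34 positions and the Th2 input 6, a 4.87-fold difference (2.02 to 14.2; adjusted p = 0.00424, exact binomial test). At chr4:134696001-134697000 they held 35 and 9, a 3.34-fold difference (1.58 to 7.91; adjusted p = 0.0323, exact binomial test). Both bins were also called against the Th1 input, against both inputs and against the Th2 control antibody. The third bin called, chr4:134697001-134698000, adjoins the region and held 26 Ezh2 positions against 2 in the Th2 input, an 11.2-fold difference (2.80 to 97.2; adjusted p = 0.00132, exact binomial test). It was called with the Th2 input only: the Th1 input held 17 positions there and the fold against it was 1.59. The control antibody of Th2 was 4.77-fold above the same Th2 input in that bin. The bin chr4:134695001-134696000, the third of the region and singled out after its values were seen, held 30 Th2 Ezh2 positions. It was not called with the Th2 input, which held 15 there, and was called with the Th1 input (7.81-fold), with both inputs and with the control antibody (6.13-fold).

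The single bin called in Th1 lay outside the region, at chr4:134701001-134702000, 24.9 kb after the distal 5′ end. The Th1 Ezh2 library held 19 positions there and the Th1 input 5, a 5.48-fold difference (1.98 to 18.8; adjusted p = 0.0203, exact binomial test). The Th2 input held 14 positions in this bin, and the fold against it was 1.61. The Th1 control antibody was 3.34-fold (1.04 to 12.5) above the same Th1 input. No bin of the window was called in Th1 against the Th2 input, both inputs or the control antibody. The call was thus made with the Th1 input only.

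The lowest fold of the window, with both Ezh2 libraries set against both inputs, was 0.368 at chr4:134726001-134727000, 49.9 kb after the distal 5′ end. This bin held 1 Ezh2 position in Th1 and 5 in Th2, against 10 and 8 in the inputs and 4 and 6 with the control antibody.

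At the distal 5′ end no bin was called in either cell type, and the order of the cell types turned when the inputs were exchanged. The bin that holds the distal 5′ end, chr4:134676001-134677000, had 7 Ezh2 positions in Th1 and 9 in Th2, 10 and 7 in the inputs, and 9 and 8 with the control antibody. All 6 libraries lay between 7 and 10 positions in this bin. Over 5 bins, 2.6 kb before to 2.4 kb after the distal 5′ end, Ezh2 gave 25 positions with Th1 and 54 with Th2, and the inputs gave 53 and 25. The fold over input was 0.680 (0.405 to 1.11) in Th1 and 1.86 (1.14 to 3.11) in Th2. With the inputs exchanged these became 1.19 (0.656 to 2.16) and 1.06 (0.713 to 1.58). Over both inputs together, a background shared by the cell types, they were 0.843 (0.515 to 1.34) in Th1 and 1.32 (0.912 to 1.89) in Th2. The Ezh2 counts alone, after scaling, were 1.56 times higher in Th2 (0.954 to 2.62). The inputs themselves differed there, with Th2 at 0.571 of Th1 (0.340 to 0.936) after scaling. Against the control antibody the folds were 0.696 in Th1 and 1.52 (0.952 to 2.48) in Th2. The part of the input counts in the difference between the cell types at the distal promoter was not tested.

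At the distance of the proximal start, 29.4 to 34.4 kb after the distal 5′ end, the 5 bins at chr4:134706001-134711000 had 46 Ezh2 positions in Th1 and 63 in Th2, against 55 and 32 in the inputs. The fold was 1.21 (0.797 to 1.82) in Th1 and 1.69 (1.09 to 2.68) in Th2. With the inputs exchanged it was 1.71 in Th1 and 1.19 in Th2, so that the order of the cell types turned. Over both inputs together it was 1.39 in Th1 and 1.38 in Th2. Against the control antibody it was 1.17 in Th1 and 1.39 in Th2. No bin of this stretch was called. The bin at exactly that distance, named after its values were seen, had 13 Ezh2 positions in Th1 against 6 in input (3.12-fold, adjusted p = 0.376, exact binomial test) and 11 in Th2 against 8 (1.18-fold). Over the matching input, the 4 kb region had the higher fold in both cell types. That region was chosen for high counts in the same libraries, so this order is a description. Over the other input, the Th1 folds of the region (1.72) and of this stretch (1.71) were level (the plot of the 3 stretches by background).

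**Figure D2:**
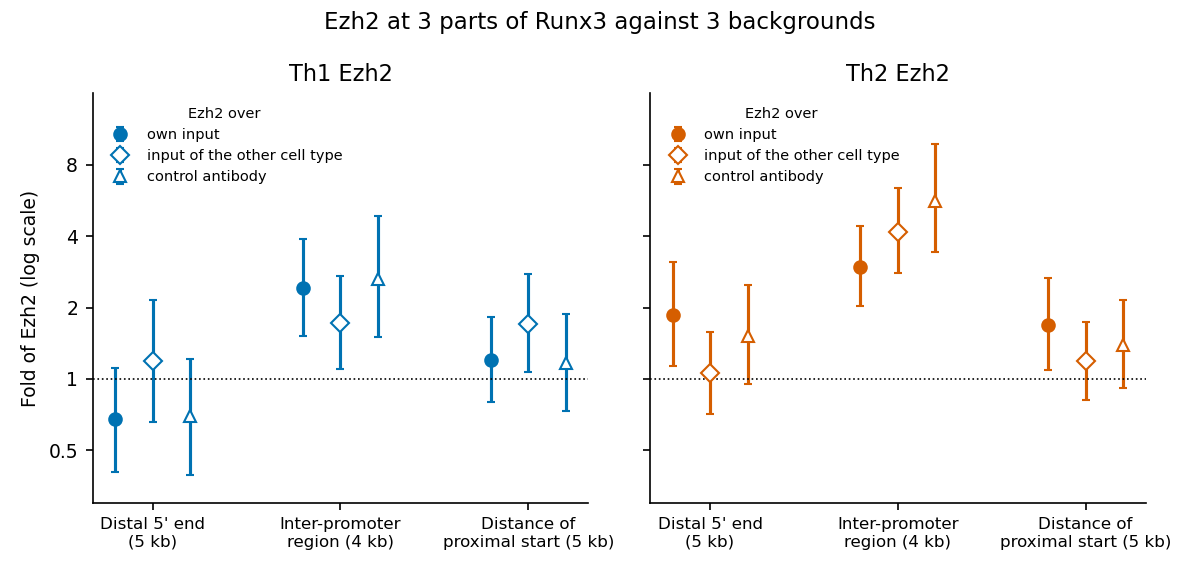
Fold of Ezh2 over 3 backgrounds (input of the same cell type, input of the other cell type, control antibody) at the distal 5′ end, in the 4 kb inter-promoter region and at the distance of the proximal start, in Th1 and Th2, with 95% exact intervals for counting error. The inter-promoter region is above 1 with every background, from 1.72 to 5.63, and the 2 promoter stretches range from 0.680 to 1.86, with 3 of their 12 intervals above 1 and the others including it. The region was picked for a high count in these libraries, and in Th1 over the other input it is level with the proximal stretch.

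In steps of 10 kb along the window, the Ezh2 fold over input in Th2 was 1.12, 1.07, 2.46, 1.70, 1.00, 0.889 and 0.849. In Th1 it was 0.850, 1.36, 1.39, 1.43, 0.810, 0.879 and 1.04. The Th2 signal thus peaked in the tile at 13.4 to 23.4 kb after the distal 5′ end, where the fold was 2.46 (1.90 to 3.21), and fell to input level in the last 3 tiles. That tile stood at the 98.7th percentile of all tiles in Th2 and at the 89.7th in Th1. In Th1 the same tile stood beside 2 neighbours of about the same fold.

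**Figure D3:**
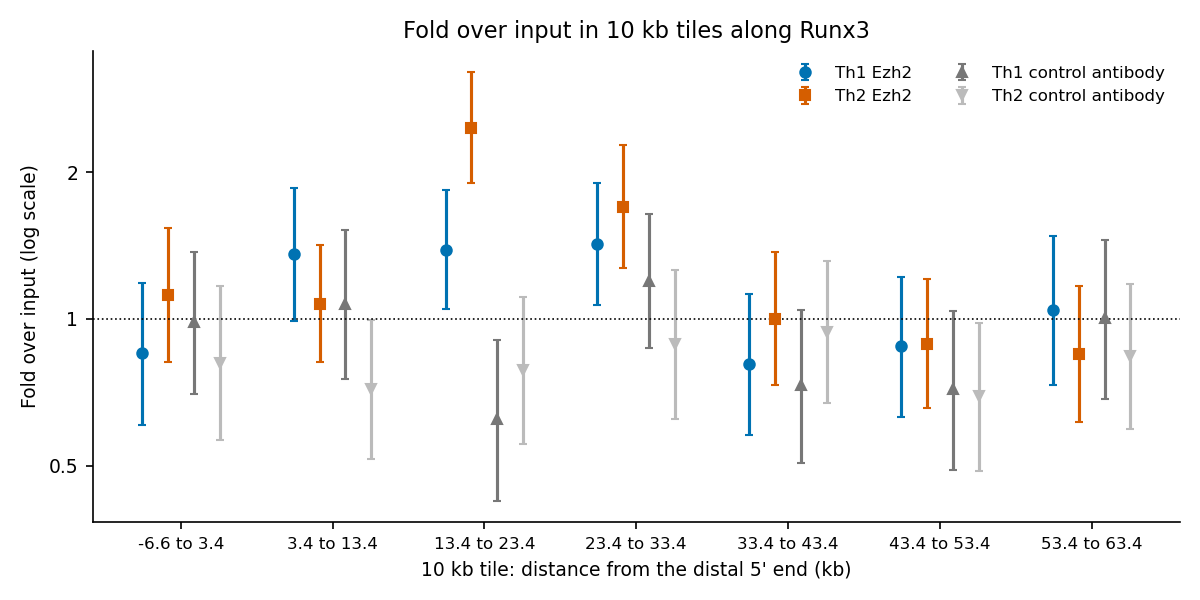
Fold over the matching input of Ezh2 and of the control antibody in the 7 tiles of 10 kb along the Runx3 window, for Th1 and Th2, on a log axis, with 95% exact intervals for counting error. Th2 Ezh2 reaches 2.46 in the tile 13.4 to 23.4 kb after the distal 5′ end, where Th1 Ezh2 is at 1.39, and both are near 1 in the last 3 tiles.

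The difference between the Th1 and Th2 libraries was tested in 3 ways, and none passed its threshold at Runx3 with the main settings. In the tile with the Th2 peak, Ezh2 gave 103 positions with Th1 and 232 with Th2, and the inputs gave 107 and 81. The fold over input was 1.77 times higher in Th2 (1.20 to 2.61), with an unadjusted p of 0.00299 and an adjusted p of 0.316 in a conditional exact test over 249639 tiles. The tile was singled out for its high Th2 fold in the same counts, so this ratio and its interval are a description. In the other tiles of the window the ratio ran from 0.790 to 1.31, and every interval included 1. None of the 7 tiles was called, against 0.0288% of tiles in the genome, and 8.18% of all tiles had an unadjusted p below 0.05.

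The second test compared the Ezh2 counts of the 4 kb region with the median ratio of Th1 to Th2 over the 2902 regions. Relative to that median, Ezh2 was 1.47 times higher in Th2 (1.06 to 2.08; unadjusted p = 0.0197, adjusted p = 0.111, exact binomial test over all regions). Regions called at least 2-fold higher in Th2 made up 0.586% of the 2902. With the inputs taken into account, the Th1 fold was 0.819 of the Th2 fold in the region, and the median of this ratio over all regions was 0.826 (adjusted p = 1, conditional exact test against the median). With library totals in place of the median, the ratio was 1.72 with an adjusted p of 0.00432 by the exact binomial test, still under the 2-fold limit of a call.

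The third test compared single bins called on both Ezh2 libraries together, and only 3 bins of the window entered it. Of these, 0 differed by at least 2-fold at an adjusted p below 0.05, against 0.589% of called bins in the genome. When every deposited read was counted, 4 of 6 tested bins did, and no genome share is at hand for that count. Over the whole 70 kb, the fold over input of Th2 was 1.16 times that of Th1 (0.993 to 1.37). The median of this ratio over 35546 windows of 70 kb was 1.00, and the Runx3 window stood at the 85.1st percentile. The Th2 fold was the higher in 45 of 70 bins, which share the same 4 libraries and so are not independent. The share of such bins over the genome was not computed. At the distal 5′ end the ratio of folds was 2.70 (1.33 to 5.66), with the input counts going the opposite way to the Ezh2 counts as given above.

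Among the 2902 Ezh2 regions, the one in Runx3 was weak. Its fold stood at the 8.30th percentile in Th1 and the 13.0th in Th2, against medians of 3.75 in Th1 and 4.52 in Th2 with 0.5 added to each count (the plot of fold in Th2 against Th1). The median length of a region was 5 kb. The widest region of the genome, chr15:102734001-102908000, had folds of 8.14 in Th1 and 12.2 in Th2. The nearest regions to the window were 85 kb before it, at chr4:134581001-134585000, and 213 kb after it, at chr4:134953001-134956000. The region before had folds of 3.78 (2.49 to 5.88) in Th1 and 2.52 (1.65 to 3.95) in Th2, and the region after had 4.05 and 3.15. In the region after, the Th1 control antibody was itself 2.61-fold over input (1.34 to 5.23), and that of Th2 was 1.00-fold. The ratio of Th1 to Th2 folds relative to the median of all regions did not pass the threshold in either (adjusted p = 0.445 before and 0.787 after, conditional exact test). By Ezh2 counts alone, the region before was 1.55 times higher in Th1 relative to the median (adjusted p = 0.0397, exact binomial test), under the 2-fold limit. The 100 kb before the window stood at 1.24-fold in Th1 and 1.23-fold in Th2 over the matching input. With the inputs exchanged these were 1.40 and 1.09. The 100 kb after the window stood at 0.997-fold in Th1 and 0.857-fold in Th2, or 1.01 and 0.842 with the inputs exchanged. In GRCm38.p6 the gene before Runx3 is Syf2 and the gene after it is Clic4, and neither was placed on mm9 here.

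**Figure D4:**
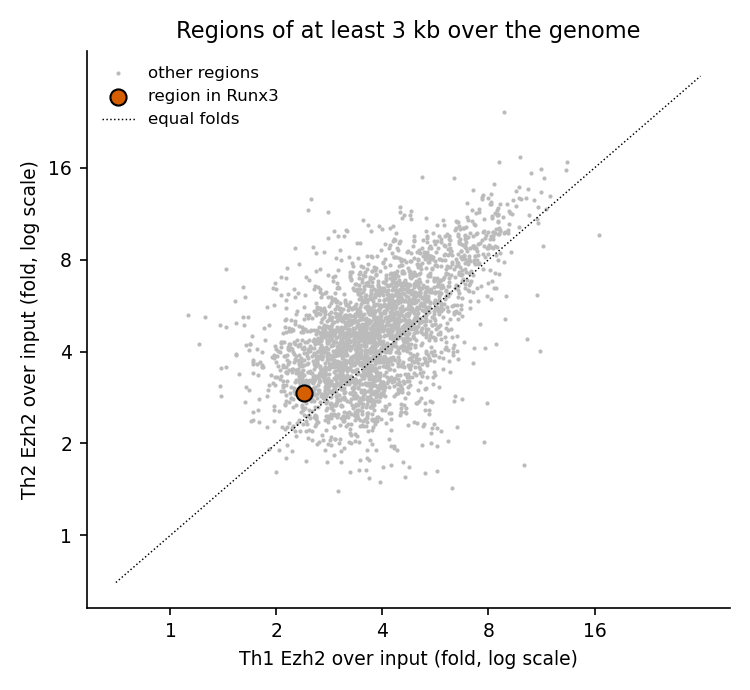
Fold of Ezh2 over input in Th2 against Th1 for the 2902 regions of at least 3 kb called on both Ezh2 libraries together, with 0.5 added to each count, on log axes. The region in Runx3 is the large point and the dotted line marks equal folds. The Runx3 region, at 2.40 in Th1 and 2.93 in Th2, lies in the low part of the cloud, below the medians of 3.75 and 4.52.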

How the data were processed

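ChIP-seq positions from 6 libraries of Th1 and Th2 cells (Ezh2, control antibody and input, 1 each) were analysed along Runx3. The deposited values are read counts per genomic interval, 119 positions wide and without strand or normalization. The submitters' processing notes name CASAVA and mm9, and settings of the alignment are not given in the sources used here. Fragments of 170 to 250 bp went through 18 PCR cycles and 36 sequencing cycles, per the labels' protocols. Reads of both strands on 1 interval cannot be told apart.

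Each distinct position was counted once, at its midpoint, in 1 kb bins of chromosomes 1 to 19 and X. The Th2 control antibody file ended inside chromosome 17, and its counts and totals were used on the 8 chromosomes it held whole. Bins with at least 10 positions over both libraries entered a one-sided exact binomial test given library totals. Calls needed a Benjamini-Hochberg adjusted p below 0.05 over all bins and at least a 2-fold excess after adding 0.5 to both counts. Bins called on both Ezh2 libraries against both inputs were merged over gaps of 1 bin, and regions of at least 3 kb were kept. Th1 and Th2 were compared by two-sided exact binomial and conditional exact tests over all regions, bins or 10 kb tiles. Folds carry 95% Clopper-Pearson intervals. Python 3.11.15 with NumPy 2.4.6, SciPy 1.17.1, pandas 2.3.3 and numba 0.67.0 was used, and the steps were tested on simulated data.

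The bins named are the one with the distal 5′ end, every called bin, the one with the lowest fold and, after their values were seen, the third bin of the inter-promoter region and the bin at the distance of the proximal start. The gene, the window, the inter-promoter region, the proximal stretch and the tests were chosen with earlier results of these data known. No mm9 annotation was used here, so no exons and no other genes of the RUNX pathway were placed. RefSeq tables of GRCm38.p6 gave the promoters, and both Runx3 entries matched by symbol.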

Additional observations from a re-analysis of the deposited data

How the results depend on the processing

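No paired analysis was possible because every group is a single library, and for the same reason no replicate could be left out. Of the alternatives run, 69 values were taken as the same, 23 moved and 3 came to pass the adjusted p. None went from an interval wholly above or below 1 to a value across 1. The same meant a fold inside the counting interval, a count close to the main count, or an unchanged outcome at the adjusted p. With the Th1 input, 3 bins were again called in Th2, but not the same 3. The count of called bins moved most. In Th1, where the main count was 1, it was 0 with 2 kb bins, a stricter rule (4-fold, adjusted p below 0.001), the control antibody as background, the input of the other cell type or both inputs together. It was 2 with all deposited reads, 3 with background scaling (totals taken from the 10 kb bins with the lower Ezh2 to input ratios) and 13 by fold alone. In Th2, where the main count was 3, it was 0 at the stricter threshold, 8 with background scaling, 11 with all reads and 14 by fold alone. Counts of 2 (no minimum of positions, or libraries thinned to equal depth) and 4 (both inputs together) were taken as the same. With the control antibody libraries, where the main count was 0, it was 5 by fold alone in each cell type and 1 in Th2 with all reads. Except for fold alone, the genome share of called bins under these alternatives was not computed. The counts thus describe the settings and are no result about Runx3.

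Background scaling raised the fold over the whole window to 1.58 in Th1 and 1.81 in Th2, and the control antibody as background raised that of Th2 to 1.61. The input of the other cell type moved the fold at the distal 5′ end from 0.680 to 1.19 in Th1, from below input to above it, and to 1.06 in Th2. The control antibody as background moved the fold of the inter-promoter region in Th2 to 5.63. With all reads, 4 of 6 tested bins and 1 tile differed between Th1 and Th2, against 0 of 3 tested bins and 0 tiles in the main tests. The genome shares with all reads were not computed for either. The ratio of Th2 to Th1 Ezh2 in the inter-promoter region had an adjusted p below 0.05 with library totals (1.72), background scaling (1.69) and all reads (1.61), each under the 2-fold limit. The cause of these moves was not tested. The alternatives with both inputs together, and those for the inter-promoter region and the proximal stretch, were chosen after seeing the data. Counts of about 10 positions per bin limit what a single bin can show.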
